A study of Mus musculus with 17 samples.

Results

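The proteasome genes of the mouse thymus were followed across 3 groups of mice. Probe sets with a single gene symbol that starts with Psma, Psmb, Psmc, Psmd, Psme or Psmg and a digit were taken, leaving out Psmb11, with 1 probe set per gene (the highest mean over the 17 arrays). This gave 47 genes, measured by 98 probe sets, of 18193 genes in all. They comprise 45 genes for subunits, activators and assembly factors, and 2 genes whose names match the pattern but which encode proteins that bind a proteasome protein (Psmc3ip and Psme3ip1). Of the 5 immune subunits, 4 were measured (Psmb8, Psmb9, Psmb10 and Psme1). The probe set of Psme2 also carries the symbol of Psme2b, so Psme2 has no value here. RNA from the thymus of 1 mouse was hybridized to each array, and the methods of the study name homogenized thymocytes as its source. The groups were lymphoma (C57Bl/6 Tcf1-/- ΔVII/ΔVII mice with a thymic lymphoma, n = 8), Tcf1-/- (the same genotype without a tumor, n = 4) and Tcf1+/- (C57Bl/6 wt/ΔVII, the controls, n = 5). All mice thus carry the ΔVII allele, a germline mutation of the T-cell factor Tcf1, and no group was wild type. The ages are not given in the labels. All values are log2 signals, on which a difference of 1 is a doubling.

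The proteasome degrades proteins that carry ubiquitin chains. Its core is a stack of alpha and beta rings, in which Psmb5, Psmb6 and Psmb7 carry the active sites, and a regulatory particle of ATPases, other base subunits and a lid unfolds the substrates. In cells exposed to interferon, and constitutively in many lymphocytes and antigen-presenting cells, newly built cores take up Psmb8 in place of Psmb5, Psmb9 in place of Psmb6 and Psmb10 in place of Psmb7. This immunoproteasome, with the activator formed by Psme1 and Psme2, yields peptides suited to MHC class I molecules. Psmg1 to Psmg4 encode chaperones that assemble the core, while Psmd5, Psmd9 and Psmd10 encode chaperones of the base.

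The start of Psmb9 lies next to that of Tap1, the peptide transporter of the MHC class I pathway, which is read from the other strand. The bases between the 2 starts and the bases before the starts of Psmb8, Psmb10 and Psmd9 are shown for the 3 immune catalytic subunits, whether called or not, and for a chaperone of the base that was called in 2 of the comparisons. All are from RefSeq (GRCm38.p6), 5′ to 3′ on the strand of the gene. Capitals mark matches to any of 6 motifs searched on both strands of 300 bases per gene (250 before and 50 after the start): the interferon-stimulated response element (GAAA, any 2 bases, GAAA), the interferon-gamma activated site TTCNNNGAA, the CCAAT box CCAAT, the core of the antioxidant response element TGACNNNGC, the ETS motif CCGGAAGT and the E-box CACGTG.
Psmb9, chr17:34187331-34187555, minus strand, 225 bases to the start of Tap1: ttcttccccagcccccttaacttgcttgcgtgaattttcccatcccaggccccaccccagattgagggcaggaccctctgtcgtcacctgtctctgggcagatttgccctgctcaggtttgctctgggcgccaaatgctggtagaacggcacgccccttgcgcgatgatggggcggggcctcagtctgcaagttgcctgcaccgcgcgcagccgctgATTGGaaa
Psmb8, chr17:34197945-34198194, plus strand: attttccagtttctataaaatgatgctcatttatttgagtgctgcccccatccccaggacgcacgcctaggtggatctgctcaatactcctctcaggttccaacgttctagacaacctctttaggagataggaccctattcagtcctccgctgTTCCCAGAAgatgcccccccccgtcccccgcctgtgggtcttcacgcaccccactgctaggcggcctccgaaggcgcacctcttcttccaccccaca
Psmb10, chr8:105938393-105938642, minus strand: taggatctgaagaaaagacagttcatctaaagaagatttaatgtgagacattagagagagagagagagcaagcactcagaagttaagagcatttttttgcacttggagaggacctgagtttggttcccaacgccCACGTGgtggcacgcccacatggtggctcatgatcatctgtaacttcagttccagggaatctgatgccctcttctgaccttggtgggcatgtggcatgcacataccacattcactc
Psmd9, chr5:123227940-123228189, plus strand: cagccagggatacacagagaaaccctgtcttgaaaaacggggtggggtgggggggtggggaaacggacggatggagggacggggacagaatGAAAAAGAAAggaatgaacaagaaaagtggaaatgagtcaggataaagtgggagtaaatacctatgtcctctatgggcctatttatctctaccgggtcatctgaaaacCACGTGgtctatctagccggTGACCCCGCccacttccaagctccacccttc
Psme1 has its match after the start, and it is shown with 10 bases on each side.
Psme1, chr14:55578493-55578522, plus strand: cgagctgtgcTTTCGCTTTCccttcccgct

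In these windows the Psmb9 capitals are a CCAAT box on the opposite strand, at -8 to -4 from the start, and those of Psmb8 a match to the interferon-gamma activated site, at -97 to -89. Psmb10 held an E-box. Psmd9 held a match to the interferon-stimulated response element, an E-box and the core of the antioxidant response element, in that order towards the start. The match of Psme1 is to the interferon-stimulated response element, from base 10 to base 19 of the transcript. Promoters were matched for 39 of the 47 genes. The interferon-stimulated response element was found in 5 of them (Psmb3, Psmd4, Psmd9, Psme1 and Psmg4) and in 3.44% of all 32851 windows, and the interferon-gamma activated site in 3 (Psmb8, Psmd2 and Psmg1) and in 8.3% of all windows. The ETS motif was found in 9 of the 39 and in 3.89% of all windows, the antioxidant core in 6 and in 12.4%, the E-box in 5 and in 7.15%, and the CCAAT box in 15 and in 37.4%. A match describes the letters only.

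Cd3e and Cd3g, which encode chains of the T-cell receptor complex, lay at or above the 94.6th percentile of the signals in all 17 arrays. The arrays of lymphoma replicates 1 and 2 and of Tcf1+/- replicates 1 and 2 stood apart, with an interquartile range of the log2 values of 2.93 to 3.06, against 3.49 to 3.75 on the other 13 arrays. On these 4 arrays 13 of the 47 genes were lower by over 0.5 in both groups, among them Psmb7 and Psmb8, and 2 (Psmb3 and Psmd3) were higher by over 0.5, so results are given with and without them. Y-linked genes gave a signal in 2 of 8 lymphomas, 4 of 4 Tcf1-/- mice and 4 of 5 Tcf1+/- mice. Of the 47 genes, 46 passed the filter on low signals and all 46 lay at or above the 65.1th percentile of every array. Psma8, which encodes an alpha subunit best known from the testis, did not pass. It was at most 4.38 on all arrays but 2, with 7.85 in lymphoma replicate 1 and 7.57 in Tcf1-/- replicate 4.

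The 3 immune subunits Psmb9, Psmb10 and Psme1 rose in Tcf1-/- thymi, while none of the other members rose. Called here means an adjusted p under 0.05 in limma over the 13755 genes tested. Of the 46 members tested, 5 were called between Tcf1-/- and Tcf1+/- thymi, 3 higher and 2 lower, against 14.8% of all genes tested (10.1% higher and 4.7% lower). The 4 immune subunits had a median difference of 0.76, the 43 other members one of -0.13 and all 18193 genes one of -0.04. Without the 4 arrays these medians were 0.68, -0.34 and 0.02. Of the other members, 31 of 43 had a negative difference, and 40 of 43 without the 4 arrays. All genes came to 10300 of 18193 with a negative difference, and to 8510 without the 4 arrays.

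Psmb9 had log2 signals of 11.63, 11.09, 11.17 and 11.33 in the 4 Tcf1-/- thymi, against 10.53, 10.19, 10.58, 10.39 and 10.44 in the 5 Tcf1+/- thymi. All Tcf1-/- mice were above all Tcf1+/- mice. The difference was 0.88 ± 0.158 (SE), a 1.84-fold higher signal, with an adjusted p of 0.00423 in limma. Psmb10 had 11.50, 10.88, 11.23 and 10.91 in Tcf1-/- thymi and 10.28, 10.24, 10.43, 10.36 and 10.35 in Tcf1+/- thymi, again without overlap, and the controls varied little among themselves. It was 1.74-fold higher (difference 0.80, adjusted p = 0.00764 in limma). Psme1, a subunit of the activator that opens the core, had 12.65, 12.25, 12.51 and 12.28 in Tcf1-/- thymi, against 11.43, 11.66, 11.66, 11.85 and 11.91 in Tcf1+/- thymi. The groups did not overlap, and the signal was 1.65-fold higher (difference 0.72, adjusted p = 0.0113 in limma). These 3 calls held without any single mouse and without the 4 arrays (differences of 0.83, 0.75 and 0.62, adjusted p of 0.0093, 0.0198 and 0.0206 in limma). They also held with the array set as a block, which is no separate check. No Tcf1-/- array stood apart, so that fit gives the same differences as leaving the arrays out. With the Y-linked signal as a covariate they held too, but 4 of 4 Tcf1-/- and 4 of 5 Tcf1+/- mice had this signal. By the exact Mann-Whitney test, which called no gene in this comparison, each of the 3 had an adjusted p of 0.0944. With the mouse number as a block Psmb9 was called (adjusted p = 0.0381 in limma), while Psmb10 and Psme1 were not (adjusted p of 0.0626 and 0.0795). That fit called 9.14% of all genes tested.

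Psmb8, the immune counterpart of Psmb5, was not called. Its signals were 12.66, 12.35, 12.70 and 12.83 in Tcf1-/- thymi and 11.96, 11.99, 12.65, 12.34 and 12.48 in Tcf1+/- thymi. The 2 lowest controls are arrays that stood apart, and the groups overlapped. The difference was 0.35 (adjusted p = 0.285 in limma), and 0.14 without the 4 arrays. The second probe set of Psmb8, with a mean log2 signal of 7.64 against 12.35, differed by -0.26.

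The catalytic subunits that the immune subunits replace were not called in this comparison. Psmb6 had 10.94, 11.20, 11.22 and 11.35 in Tcf1-/- thymi, against 11.43, 11.56, 11.65, 11.53 and 11.63 in Tcf1+/- thymi. No Tcf1-/- value reached the lowest control value, yet the difference of -0.38 had an adjusted p of 0.0971 in limma (0.0507 without the 4 arrays and 0.0392 with the array set as a block). Psmb5 and Psmb7 differed by -0.24 and -0.20, with overlapping groups.

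**Figure D1:**
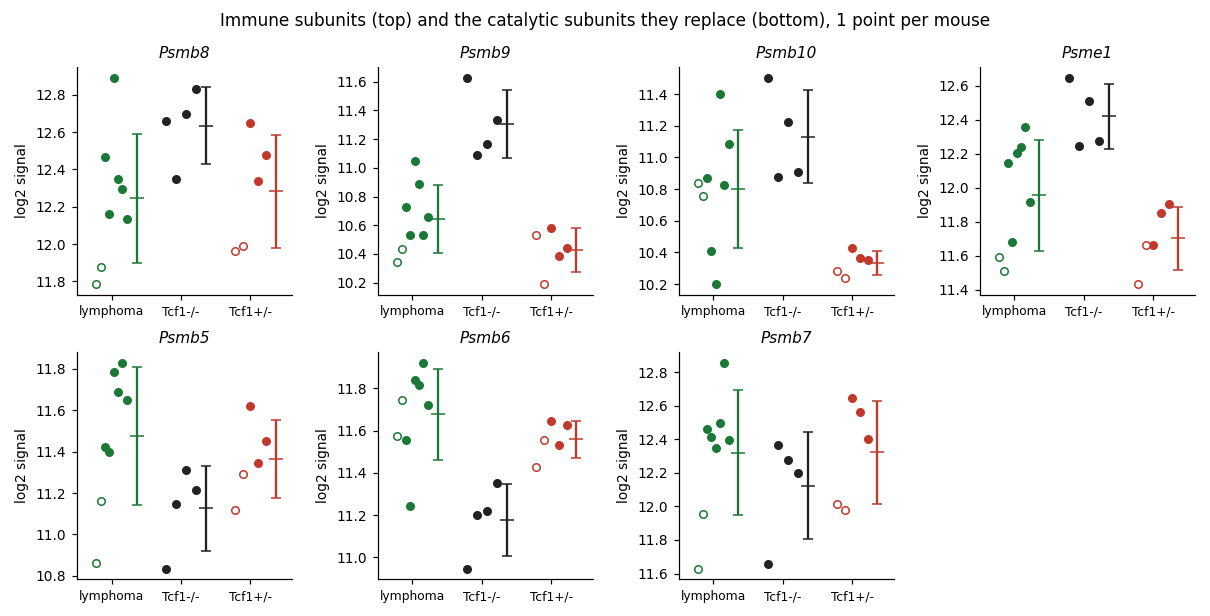
Log2 signals (y axis) of the 4 immune subunits (top row) and of the 3 catalytic subunits they replace (bottom row) in lymphoma (n = 8), Tcf1-/- (n = 4) and Tcf1+/- thymi (n = 5). Each point is 1 mouse, open points are the 4 arrays that stood apart, and bars are the mean ± SD. For Psmb9, Psmb10 and Psme1 all Tcf1-/- points lie above all Tcf1+/- points.

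Setting each immune subunit against its partner within the same mouse removes a shift that both probe sets share. As a description, relative to the mean of the Tcf1+/- thymi, Psmb9 minus Psmb6 was 1.81, 1.03, 1.08 and 1.11 in Tcf1-/- thymi, -0.26 to 0.42 in lymphomas (median 0.14) and -0.24 to 0.23 in Tcf1+/- thymi. The 4 Tcf1-/- thymi were above all other mice. Psmb8 minus Psmb5 was 0.91, 0.28, 0.47 and 0.70 in Tcf1-/- thymi, -0.45 to 0.19 in lymphomas and -0.22 to 0.11 in Tcf1+/- thymi, so here too the Tcf1-/- thymi were highest. Psmb10 minus Psmb7 was 1.83, 0.51, 0.94 and 0.70 in Tcf1-/- thymi, -0.16 to 1.20 in lymphomas and -0.23 to 0.25 in Tcf1+/- thymi. For this pair the lymphomas overlapped with both other groups. On the lymphoma arrays that stood apart Psmb7 was shifted by -0.70 and Psmb10 was not, and without these arrays the lymphomas ranged from -0.16 to 0.90.

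**Figure D2:**
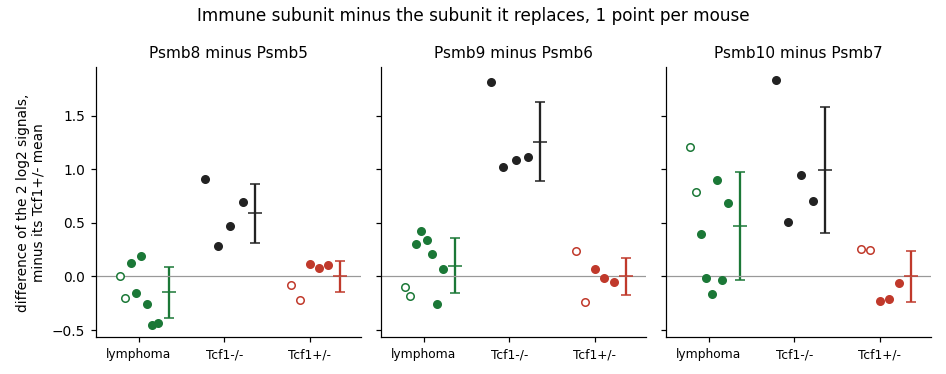
Log2 signal of an immune subunit minus that of the catalytic subunit it replaces, relative to the mean of the Tcf1+/- thymi (y axis), for 3 pairs in lymphoma (n = 8), Tcf1-/- (n = 4) and Tcf1+/- thymi (n = 5). Points are mice, open points the 4 arrays that stood apart, and bars the mean ± SD. For Psmb9 minus Psmb6 the Tcf1-/- points lie from 1.03 to 1.81 and all others at or below 0.42.

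The 2 members that fell in Tcf1-/- thymi belong to the regulatory particle. Psmd9, a chaperone of base assembly, had 7.86, 8.30, 8.41 and 8.59 in Tcf1-/- thymi, against 8.73, 8.73, 9.22, 9.04 and 9.15 in Tcf1+/- thymi, without overlap. It fell by 0.68 on the log2 scale (adjusted p = 0.0342 in limma). Psmd13, a lid subunit, had 9.66, 9.95, 9.92 and 9.97 in Tcf1-/- thymi and 10.61, 10.34, 10.57, 10.15 and 10.38 in Tcf1+/- thymi, also without overlap, and fell by 0.54 (adjusted p = 0.036 in limma). Both calls held without the 4 arrays (adjusted p of 0.0153 and 0.046 in limma) and were lost on leaving out certain single mice, in 6 of 9 cases for Psmd9 and in 7 of 9 for Psmd13. Without the 4 arrays 4 further members were called lower: Psmc3, an ATPase (-0.55), Psmd10, a chaperone of the base (-0.81), Psmd4, a ubiquitin receptor (-0.48), and Psmd8, a lid subunit (-0.63). In that fit 6 members were lower and 3 higher, against 11.9% and 10.3% of all genes tested (22.1% called). Over all mice the groups did not overlap for 3 members higher and 5 lower in Tcf1-/- thymi (Psmb6, Psmc3, Psmd9, Psmd13 and Psmg3), against 11.2% and 6.11% of the genes tested.

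Genes that act with the immunoproteasome were also higher in Tcf1-/- thymi. Of 12 measured genes of MHC class I peptide loading, 7 rose and none fell (6 rose and none fell without the 4 arrays). The largest differences were those of Nlrc5, a transactivator of MHC class I genes (2.28), and of the class I genes H2-K1 (1.74), H2-D1 (1.69) and H2-M3 (1.62). Tap1, named for the bases it shares with Psmb9, was 10.68 ± 0.59 in Tcf1-/- thymi and 9.58 ± 0.08 in Tcf1+/- thymi (SD), a difference of 1.10 with an adjusted p of 0.0128 in limma. Of 19 tested genes of the interferon and NF-kB list, 11 rose and none fell (8 rose and Ifngr1, a chain of the interferon-gamma receptor, fell by 0.99 without the 4 arrays), among them the interferon-induced genes Gbp3 (2.85) and Ifit3 (2.64) and the interferon regulatory factors Irf7 (2.59) and Irf8 (2.30). Proteasome partners outside the rule, such as the core maturation factor Pomp, the deubiquitinases Usp14 and Uchl5 and the segregase Vcp, gave no call in 15 tested genes (limma, 1 at an unadjusted p under 0.05). Without the 4 arrays 2 of the 15 were called lower, Ubqln2 (-0.64, adjusted p = 0.0128 in limma) and Ngly1 (-0.58, adjusted p = 0.0439), and none higher.

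Markers of other cells moved together with these genes. In Tcf1-/- thymi 12 of 12 macrophage and monocyte markers, 7 of 8 B-cell markers, 6 of 7 dendritic-cell markers and 5 of 5 tested NK-cell markers were called higher than in Tcf1+/- thymi, and 6 of 8 markers of T cells and double-positive thymocytes were called lower. Without the 4 arrays these counts were, in the same order, 11, 7, 5 and 4 higher and 6 lower. Of the other lists, 4 of 6 tested fibroblast markers, 2 of 5 neutrophil markers and 1 of 10 tested markers of thymic epithelium were called higher, and the 1 tested erythroid marker was not called in any comparison. Without the 4 arrays 2 markers of thymic epithelium were called higher and 1 lower. The mean level of the macrophage list relative to the Tcf1+/- mean was 1.54 to 3.43 in Tcf1-/- thymi and -0.69 to 0.45 in Tcf1+/- thymi. For the B-cell list it was 2.52 to 4.31 in Tcf1-/- thymi and -0.25 to 0.36 in Tcf1+/- thymi. Tcf1-/- replicate 1 was highest in the mean of the immune subunits (0.92), of the macrophage list (3.43), of the B-cell list (4.31) and of the interferon and NF-kB list (2.01). Replicate 2, which was lowest in the immune subunits (0.46), was second in the macrophage and B-cell lists (2.61 and 3.16). As background, macrophages, dendritic cells and B cells express immune subunits constitutively. The part of these cells in the differences was not tested, and in RNA of mixed cells fewer cells of a type and less RNA per cell cannot be told apart.

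**Figure D3:**
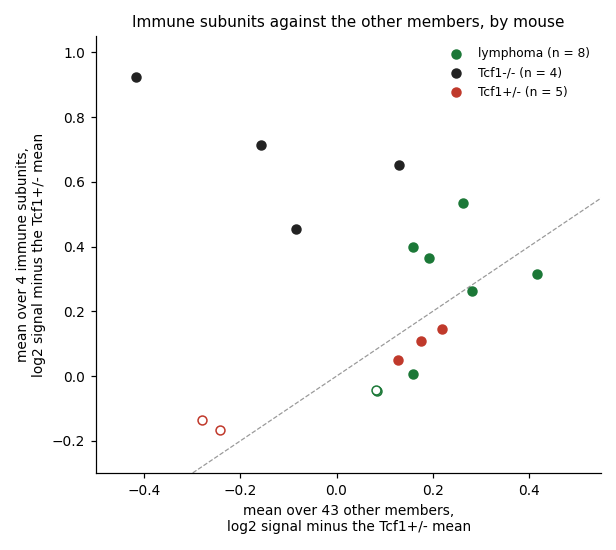
Mean over the 4 immune subunits (y axis) against the mean over the 43 other members (x axis), each as log2 signal minus the mean of the Tcf1+/- thymi, for lymphoma (n = 8), Tcf1-/- (n = 4) and Tcf1+/- thymi (n = 5). Points are mice, open points the 4 arrays that stood apart, and the dashed line marks equal values. The Tcf1-/- thymi lie furthest above the line, by 0.52 to 1.34, against -0.15 to 0.27 for the lymphomas and -0.08 to 0.14 for the Tcf1+/- thymi.

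In lymphomas against Tcf1-/- thymi the pattern was turned round: 12 of the other members rose and the immune subunit Psmb9 fell. These 13 calls among 46 tested members compare with 14.7% of all genes tested (6.34% higher and 8.35% lower). The median difference was -0.43 over the 4 immune subunits, 0.31 over the 43 other members and 0.10 over all genes. Of the other members 34 of 43 had a positive difference, and over all genes 11743 of 18193. Both comparisons of Tcf1-/- thymi use the same 4 mice, so that the 2 patterns are not independent.

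Psmb9 ranged over 10.34, 10.59 and 11.05 in lymphomas (lowest, median and highest), against 11.63, 11.09, 11.17 and 11.33 in Tcf1-/- thymi. The highest lymphoma stayed just below the lowest Tcf1-/- thymus. Psmb9 fell by 0.66 on the log2 scale (SE 0.164, adjusted p = 0.0175 in limma), and by 0.57 without the 4 arrays (adjusted p = 0.0273). Psme1, Psmb8 and Psmb10 had differences of -0.47, -0.39 and -0.33 and adjusted p of 0.116, 0.21 and 0.333 in limma, with overlapping groups. The second probe set of Psmb8 differed by 0.40, in the opposite direction to the first.

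The chaperones of core assembly gave the largest difference among the proteasome genes proper. Psmg3 ranged over 9.63, 10.30 and 10.63 in lymphomas, against 9.08, 9.002, 9.19 and 9.13 in Tcf1-/- thymi. Every lymphoma was above every Tcf1-/- thymus, and lymphoma replicates 3 and 4 were the lowest of their group. Psmg3 rose (difference 1.10 ± 0.196, SE, adjusted p = 0.00239 in limma). The second probe set of Psmg3, with a mean log2 signal of 4.86 against 9.71, differed by 0.67. Psmg1 ranged over 10.39, 11.02 and 11.18 in lymphomas, against 9.40, 10.17, 10.22 and 10.69 in Tcf1-/- thymi, where replicates 1 and 2 of the lymphomas overlapped with the highest Tcf1-/- value. Its difference was 0.80 (adjusted p = 0.0321 in limma), and 0.94 without the 4 arrays, and the call was lost in 6 of 12 cases on leaving out single mice (adjusted p of 0.0539 to 0.131). Psmg2 and Psmg4 had differences of 0.30 and 0.35 and were not called.

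Psmd9, the chaperone of the base that fell in Tcf1-/- thymi, ranged over 8.16, 9.50 and 9.60 in lymphomas, against 7.86, 8.30, 8.41 and 8.59 in Tcf1-/- thymi. Lymphoma replicate 4 alone lay within the Tcf1-/- range. The difference was 0.98 (adjusted p = 0.0238 in limma). The call of Psmd9 was lost in 3 of 12 cases on leaving out single mice (adjusted p of 0.0517 to 0.103). It was also lost with the mean of all probe sets and by the Mann-Whitney test. Psmc3ip, one of the 2 genes caught by the pattern, encodes a factor of homologous recombination in meiosis and is not a proteasome subunit. It ranged over 8.80, 9.61 and 9.97 in lymphomas, against 6.68, 8.14, 8.39 and 8.51 in Tcf1-/- thymi, without overlap, and had the largest difference of all members (1.57, adjusted p = 0.0076 in limma). Its second probe set differed by 0.63.

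**Figure D4:**
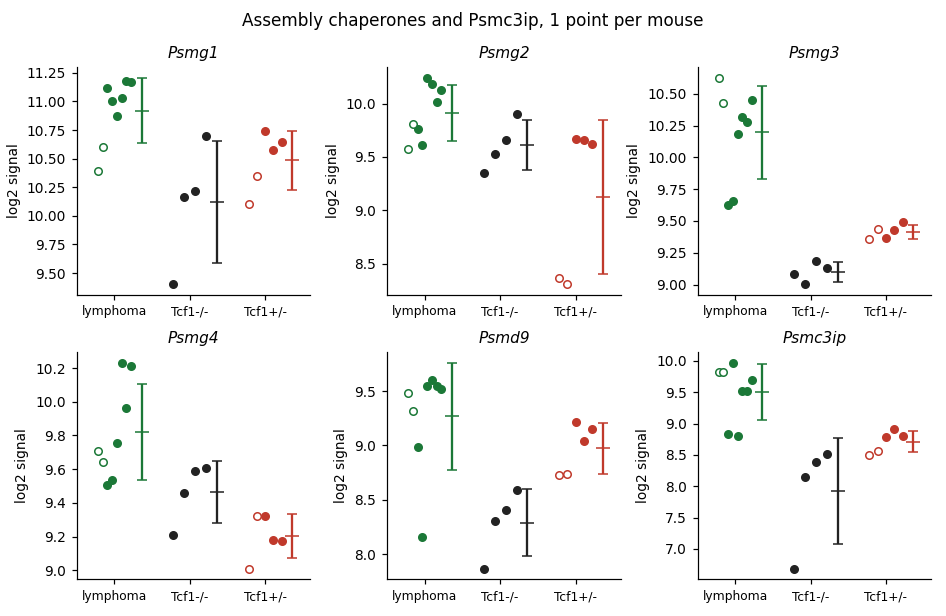
Log2 signals (y axis) of the core assembly chaperones Psmg1 to Psmg4, the base chaperone Psmd9 and Psmc3ip in lymphoma (n = 8), Tcf1-/- (n = 4) and Tcf1+/- thymi (n = 5). Points are mice, open points the 4 arrays that stood apart, and bars the mean ± SD. For Psmg3 all lymphomas lie at or above 9.63 and all other mice at or below 9.49.

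Of the beta ring, 3 of 7 genes rose. Psmb3, a subunit without an active site, ranged over 12.26, 12.55 and 13.16 in lymphomas, against 11.94, 11.78, 12.01 and 11.23 in Tcf1-/- thymi, without overlap (difference 0.89, adjusted p = 0.0154 in limma). The 2 highest lymphomas were the arrays that stood apart, and without them the difference was 0.71 (adjusted p = 0.0165). The second probe set of Psmb3 differed by 0.16. Psmb4, also without an active site, rose by 0.47 (adjusted p = 0.0395 in limma), a call lost on leaving out any of 8 single mice of 12 (adjusted p of 0.0539 to 0.102). Psmb6, the partner of Psmb9, ranged over 11.24, 11.73 and 11.92 in lymphomas, against 10.94, 11.20, 11.22 and 11.35 in Tcf1-/- thymi. Only lymphoma replicate 4 was within the Tcf1-/- range, and the difference was 0.50 (adjusted p = 0.0422 in limma), a call likewise lost in 8 of 12 cases (adjusted p of 0.0535 to 0.156). Psmb5 and Psmb7 differed by 0.35 and 0.19 and were not called over all mice.

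Of the 6 ATPases, which thread the substrate into the core, Psmc3, Psmc4 and Psmc5 rose, and all 6 had positive differences (0.27 to 0.64). Psmc3 ranged over 11.65, 11.76 and 11.96 in lymphomas, against 11.14, 11.25, 11.29 and 11.48 in Tcf1-/- thymi. The groups did not overlap and varied little within themselves (difference 0.49 ± 0.121, SE, adjusted p = 0.0171 in limma). Psmc4 and Psmc5 rose by 0.64 and 0.55 (adjusted p of 0.0214 and 0.0192 in limma), without overlap. Among 8 lid genes Psmd6 rose by 0.62 (adjusted p = 0.0222 in limma), and its second probe set, of nearly the same brightness, differed by -0.04. The 7 other lid genes had differences of -0.06 to 0.78. Among 8 genes of the alpha ring Psma6 rose by 0.65 (adjusted p = 0.0144 in limma), its second brightest probe set differing by 0.31, and the 7 others had differences of -0.36 to 0.24. On leaving out single mice, the calls of Psmc3 and Psmc4 were lost in 3 of 12 cases each. Those of Psmc5 and Psmd6 were lost in 2 each, and that of Psma6 in 1. The 3 other base subunits and the 2 activators Psme3 and Psme4 gave no call (limma, 0 of 5 at an unadjusted p under 0.05). In all, 9 members were higher without overlap and 1 lower, against 4.41% and 6.27% of all genes tested.

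**Figure D5:**
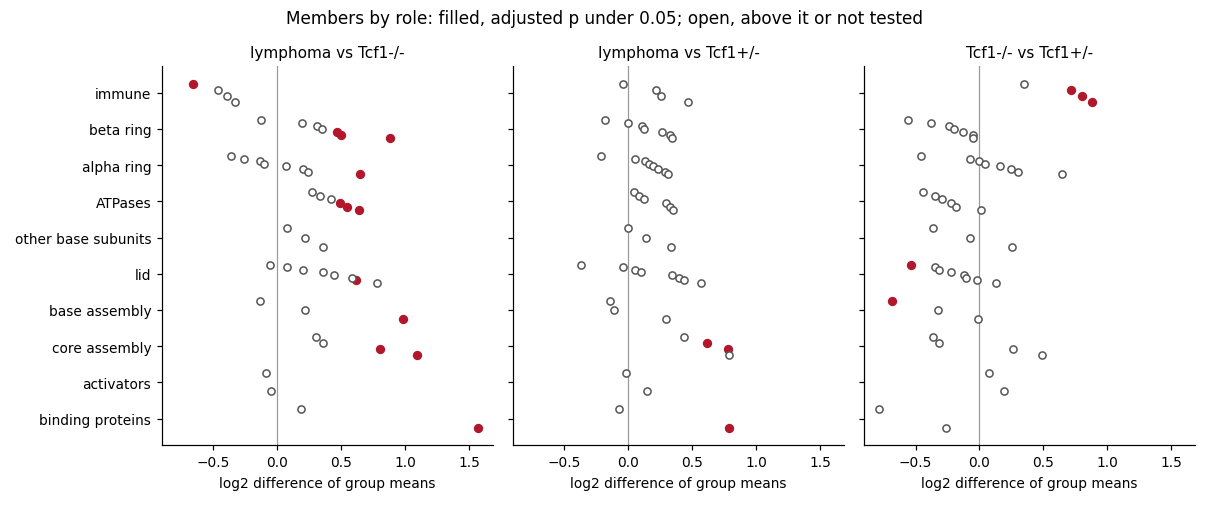
Difference of group means on the log2 scale (x axis) for the 47 genes by role (y axis), in the 3 comparisons. Each point is 1 gene, filled at an adjusted p under 0.05 in limma and open above it or where the gene was not tested. The immune subunits lie at -0.66 to -0.33 in lymphoma against Tcf1-/- and at 0.35 to 0.88 in Tcf1-/- against Tcf1+/-.

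Without the 4 arrays 17 members were higher and Psmb9 was lower in lymphomas, against 9.17% and 8.62% of all genes tested (17.8% called). The 13 calls made with all arrays were among them, and Psma2, Psmb1, Psmb5, Psmc6 and Psmd13 were added (differences of 0.38 to 0.51). In contrast, leaving out Tcf1-/- replicate 1 left 3 calls (Psmb3, Psmc3ip and Psmg3), leaving out replicate 2 left 8 and leaving out replicate 3 left 6. Over all genes tested, leaving out single mice gave 1014 to 2203 calls in place of 2020. With the Y-linked signal as a covariate no member was called (smallest adjusted p 0.0651, limma, 10 members at an unadjusted p under 0.05). Only 2 lymphomas had this signal while all Tcf1-/- mice had it, and 2.81% of all genes tested were called in that fit.

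Of MHC class I peptide loading, 7 of 12 genes fell in lymphomas against Tcf1-/- thymi, with the largest differences for Nlrc5 (-3.21), H2-K1 (-2.70), H2-D1 (-2.69) and H2-M3 (-1.71). Tap1 was 9.47 ± 0.35 in lymphomas and 10.68 ± 0.59 in Tcf1-/- thymi (SD), and fell by 1.21 (adjusted p = 0.00682 in limma). Of 19 tested genes of the interferon and NF-kB list 13 fell, with Ifit1 (-3.70), Ifit3 (-3.52), Irf7 (-3.13) and Irf8 (-2.30) the largest. Of 15 proteasome partners only Txnl1, a thioredoxin-like protein that binds the regulatory particle, was called. It rose by 0.61 (adjusted p = 0.0145 in limma). Markers of other cells fell with the immune genes: 11 of 12 macrophage and monocyte markers, 7 of 8 B-cell markers, 6 of 7 dendritic-cell markers, 4 of 5 tested NK-cell markers and 5 of 5 neutrophil markers (3 of 5 without the 4 arrays). The mean of the macrophage list was -1.86 to 1.07 in lymphomas and 1.54 to 3.43 in Tcf1-/- thymi, and that of the B-cell list -0.56 to 0.74 in lymphomas and 2.52 to 4.31 in Tcf1-/- thymi. Of 10 tested markers of thymic epithelium 5 fell, while none of 8 T-cell and double-positive markers (limma, 1 at an unadjusted p under 0.05) and none of 6 fibroblast markers (limma, 0 at an unadjusted p under 0.05) was called. The part of these cells in the differences of Psmb9 and of the other members was not tested.

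In lymphomas against Tcf1+/- thymi 2 chaperones of core assembly rose, Psmg3 and Psmg4, and so did the recombination factor Psmc3ip. Of 46 members tested these 3 rose and none fell, against 12.7% of all genes tested (8.51% higher and 4.21% lower). The medians were 0.24 over the 4 immune subunits, 0.16 over the 43 other members and 0.04 over all genes. Without the 4 arrays they were 0.27, 0.07 and 0.07, and 25 of the 43 other members had a positive difference in place of 33. Over all 18193 genes, 11264 were positive without these arrays in place of 10328. Psmg3 ranged over 9.63, 10.30 and 10.63 in lymphomas, against 9.36, 9.44, 9.36, 9.43 and 9.49 in Tcf1+/- thymi. The groups did not overlap, and the lymphomas varied more than the controls (SD of 0.37 against 0.06). Psmg3 was 1.72-fold higher (difference 0.78 ± 0.177, SE, adjusted p = 0.0105 in limma), and its dim second probe set differed by 0.27. Psmg4 ranged over 9.50, 9.73 and 10.23 in lymphomas, against 9.01, 9.32, 9.32, 9.18 and 9.18 in Tcf1+/- thymi, also without overlap, and was 1.54-fold higher (difference 0.62, adjusted p = 0.0181 in limma). These 2 genes are the only members without overlap here, against 4.78% of the genes tested that were higher and 1.9% that were lower without overlap.

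Psmg2 and Psmg1 had differences of 0.79 and 0.44 from Tcf1+/- thymi, with adjusted p of 0.0619 and 0.113 in limma. Psmg2 was 8.37 and 8.31 in the 2 controls whose arrays stood apart and 9.66, 9.66 and 9.62 in the 3 other controls, against 9.57, 9.91 and 10.24 in lymphomas (lowest, median and highest). Its difference thus dropped to 0.34 without the 4 arrays. Psmc3ip ranged over 8.80, 9.61 and 9.97 in lymphomas, against 8.51, 8.57, 8.78, 8.92 and 8.80 in Tcf1+/- thymi, with lymphoma replicates 3 and 5 among the controls (difference 0.78, adjusted p = 0.0249 in limma).

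These 3 calls depended on the arrays. Without the 4 arrays Psmg3, Psmg4 and Psmc3ip had differences of 0.66, 0.64 and 0.56 and adjusted p of 0.067, 0.0575 and 0.19 in limma, while Psmb3 (0.56, adjusted p = 0.0232) and Psmg1 (0.41, adjusted p = 0.0465) were called higher, against 11.4% of all genes tested (5.44% higher and 6% lower). With the array set as a block in a fit of all 13 mice, 11 members were called, 9 higher and 2 lower, and these included all 4 core chaperones: Psmg3 (0.82, adjusted p = 0.00284), Psmg4 (0.60, adjusted p = 0.00839), Psmg2 (0.68, adjusted p = 0.0135) and Psmg1 (0.36, adjusted p = 0.0155). That fit called 27.3% of all genes tested (14.9% higher and 12.4% lower). With the mouse number as a block, which uses lymphomas 1 to 5 only, the adjusted p was 0.0528 for Psmg3, 0.0814 for Psmg4 and 0.0861 for Psmc3ip in limma, and 1 member was called, the lid subunit Psmd8, which fell by 0.54 (adjusted p = 0.047), against 13% of all genes tested. With the Y-linked signal as a covariate, Psmg3 and Psmg4 had adjusted p of 0.0655 and 0.0565 in limma, and Psmg2 (1.07, adjusted p = 0.0379) and Psmc3ip (0.97, adjusted p = 0.0264) were called, against 8.16% of all genes tested. That signal was found in 2 of 8 lymphomas and 4 of 5 Tcf1+/- mice. With quantile normalization Psmg3, Psmg4 and Psmc3ip had adjusted p of 0.0506, 0.0593 and 0.0754 in limma. The call of Psmg3 was also lost with the mean of all its probe sets.

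The immune subunits were not called between lymphomas and Tcf1+/- thymi, and the spread of the lymphomas was the larger one. Psmb10 ranged over 10.20, 10.83 and 11.40 in lymphomas, against 10.28, 10.24, 10.43, 10.36 and 10.35 in Tcf1+/- thymi. Lymphoma replicate 4 lay among the controls, replicate 5 below them and the other 6 above them. The difference was 0.47 (adjusted p = 0.111 in limma, 0.0334 without lymphoma replicate 5). Psme1, Psmb9 and Psmb8 had differences of 0.25, 0.22 and -0.04, with adjusted p of 0.42, 0.393 and 0.942 in limma. The mean over the 4 immune subunits relative to the Tcf1+/- mean was -0.05 to 0.53 in lymphomas and -0.17 to 0.14 in Tcf1+/- thymi. It was highest in lymphoma replicate 6, which also had the highest mean of the macrophage list among lymphomas (1.07). Lymphoma replicate 5, second highest in the immune subunits (0.40), had a macrophage mean of -0.25. The part of macrophages in these values was not tested. No gene of MHC class I peptide loading was called (limma, 3 of 12 at an unadjusted p under 0.05), and of the interferon and NF-kB list 4 of 19 fell (Ifngr1, Igtp, Ifit1 and Irf9). Txnl1, the only proteasome partner called, rose by 0.62 (adjusted p = 0.00561 in limma). Without the 4 arrays Txnl1 was still called (0.50, adjusted p = 0.0296 in limma) and the partner Ubqln2 was called lower (-0.51, adjusted p = 0.0235). Of 8 T-cell and double-positive markers 5 fell (3 without the 4 arrays). Of 5 tested NK-cell markers 3 fell and 1 rose (3 and 0 without the 4 arrays), of 7 dendritic-cell markers 2 fell (1), of 10 tested markers of thymic epithelium 1 fell (3) and of 8 B-cell markers 1 rose (0). Of 12 macrophage markers none was called (limma, 0 at an unadjusted p under 0.05), and the mean of the T-cell list was -2.59 to -0.37 in lymphomas and -0.41 to 0.23 in Tcf1+/- thymi.

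Among the 3 groups the order of the levels differed by gene. Psmb9 was highest in Tcf1-/- thymi (11.30 ± 0.24), followed by lymphomas (10.64 ± 0.24) and Tcf1+/- thymi (10.43 ± 0.15), and the last 2 did not differ beyond their spread. Psmb10 and Psme1 followed the same order, where lymphomas were called different from neither neighbour. Psmg3 was highest in lymphomas (10.20 ± 0.37), followed by Tcf1+/- thymi (9.42 ± 0.06) and Tcf1-/- thymi (9.10 ± 0.08), where the last 2 did not overlap but were not called (difference -0.32, adjusted p = 0.124 in limma). Psmd9 was also lowest in Tcf1-/- thymi, with 9.27 ± 0.49 in lymphomas, 8.29 ± 0.31 in Tcf1-/- thymi and 8.97 ± 0.23 in Tcf1+/- thymi (SD).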

How the data were processed

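RNA of 17 thymi, 1 array per mouse, was measured on Affymetrix expression arrays. The authors deposited log2 signals made with RMA, which corrects background and equalizes the distribution of signals between arrays. Whether all arrays were normalized together is not given in the sources used here. The interquartile range was 2.93 to 3.06 on 4 arrays and 3.49 to 3.75 on 13, so the deposited distributions were not equal over all 17. A shift of all genes cannot be seen between arrays that such a step has equalized. Of 45101 probe sets, 64 were controls, 34945 had 1 gene symbol, 932 several and 9160 none in the platform annotation. One probe set per gene (highest mean) gave 18193 genes, and 13755 above the 40th percentile of at least 4 arrays were tested.

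Group means were compared with limma 3.58.1 (R 4.3.3), each comparison fitted on its own mice, with Benjamini-Hochberg adjustment over all genes tested. Standard errors are those of limma. The p-values set the difference of group means against the spread between mice, and the number of arrays limits the precision. The methods of the study name a Mann-Whitney test, which was run as an alternative, as were leaving out each mouse, the 4 arrays that stood apart as left out or as a block, a block on mouse number, a Y-linked covariate, other filters, scalings and probe-set rules. For lymphoma and Tcf1+/- the deviations of mice with the same number correlated at 0.246 to 0.625 in 5 pairs. The lymphoma of the same number was the closest to its control in 2 of 5. The highest correlations, 0.625 and 0.617, were those of numbers 1 and 2, whose arrays stood apart. The labels name no pairs, so the block on mouse number is an alternative only. The scripts were tested on simulated data.

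Named genes were the immune subunits and their partners, the called members and the ends of each role, given by range where not called, with at most 4 called genes per list. Members of the assembly groups, Psmd4, Psmd8, Psmd10 and Tap1 were added after their values were seen. The members and lists were chosen with earlier results of these data known. Promoter sequences were from RefSeq (GRCm38.p6).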

Additional observations from a re-analysis of the deposited data

Results flagged for a closer look

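Of 141 sets of values (each gene in each group), 6 held 1 mouse far from the rest by Dixon's criterion, which chance meets in about 1 set in 20. Psma8 had 7.85 in lymphoma replicate 1, against 3.73 to 4.31 in the other lymphomas, and 7.57 in Tcf1-/- replicate 4, against 3.71 to 3.98 in the other Tcf1-/- thymi. Lymphoma replicate 4 was low in Psmd9 (8.16, others 8.99 to 9.60) and in Psmd2, a base subunit (10.6, others 11.1 to 11.5). Lymphoma replicate 3 was low in Psma6 (12.9, others 13.2 to 13.4). Tcf1-/- replicate 1 was low in Psmd13 (9.66, others 9.92 to 9.97).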

How the results depend on the processing

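The number of members called moved more than the medians, whose direction held in all alternatives run. Between lymphoma and Tcf1-/- thymi, leaving out single mice gave 3 to 14 calls among members and 1014 to 2203 among all genes, in place of 13 and 2020. With the mouse number as a block, 0 members (limma, 11 at an unadjusted p under 0.05, smallest adjusted p 0.0818) and 584 genes were called, and with the Y-linked covariate 0 and 387. Same-numbered mice did not deviate together here (correlations of -0.189 to 0.0912 in 4 pairs) or between Tcf1-/- and Tcf1+/- (-0.286 to 0.12). Between lymphoma and Tcf1+/- thymi, single mice left out gave 1 to 4 calls among members (1 without Tcf1+/- replicate 1) in place of 3. Among all genes they gave 1177 to 1951. The mouse block gave 1, quantile normalization 1 (Psmg2) and the array-set block 11 members and 3753 genes, in place of 1749, and the Y-linked covariate 1122 genes. Between Tcf1-/- and Tcf1+/- thymi, single mice left out gave 3 to 5 calls among members and 1394 to 2042 among all genes, in place of 5 and 2037. The 3 immune subunits were called each time, and in 5 cases (without Tcf1-/- replicate 1, 2 or 3 or Tcf1+/- replicate 3 or 5) no other member was. The mouse block gave 1 member (Psmb9) and 1257 genes in place of 2037, leaving out the 4 arrays 9 members, and the array-set block 12 members and 3418 genes. The exact Mann-Whitney test gave 0 members and 0 genes (12 and 2977 at an unadjusted p under 0.05), since its smallest p of 0.0159 became 0.0944 after adjustment. The share of higher genes among those called was 68.2%, and 46.4% without the 4 arrays. For lymphoma against Tcf1+/- it was 66.9%, and 47.6% without them.

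Directions turned only for members that were not called before or after, in the refits checked over all members. Without the 4 arrays this held for 8 members in lymphoma against Tcf1-/-, 8 in lymphoma against Tcf1+/- and 9 in Tcf1-/- against Tcf1+/-, with the mouse block for 4, 7 and 4, and with the Y-linked covariate for 8, 9 and 2. Some members were followed in all alternatives. These were the immune and catalytic subunits, the Psmg genes, and the members called with all arrays, without the 4 arrays or with the mouse block. Among them, those that turned in lymphoma against Tcf1-/- were Psma2 (-0.056) and Psmb7 (-0.0095) with the mouse block, and Psmb8 (0.0078) and Psmg2 (-0.11) with the mean of all probe sets. In lymphoma against Tcf1+/- they were Psmb5 with the mouse block (-0.039), Psmb7 with the Y-linked covariate (0.18) and with median centring (0.015), and Psmb8 with the Y-linked covariate (0.065) and with the mean of all probe sets (0.054). Leaving out single mice gave -0.088 to 0.10 for Psmb7 and -0.13 to 0.053 for Psmb8. In Tcf1-/- against Tcf1+/-, Psmg2 was -0.038 without the 4 arrays and with the array-set block. The causes were not tested.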
